A study of Caenorhabditis elegans with 6 samples.

Results

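The globin genes of Caenorhabditis elegans were followed here in starved first-stage (L1) larvae that were wild type or carried the n745 nonsense mutation in lin-35, which encodes the only retinoblastoma (Rb) family protein of the worm. A gene was taken as a globin when a probe set of the array carried a single gene symbol made of glb, a hyphen and a number, and the probe set with the brightest mean over all arrays stood for the gene. This gave 30 globin genes out of 17118 genes measured in this way, on 37 of the 22548 probe sets tested. The RefSeq gene table (WBcel235) lists 34 globin genes by the same naming rule, and glb-19, glb-21, glb-24 and glb-34 were not analysed here. RNA came from whole larvae that hatched from bleached eggs and were held without food for 30 h at 20 °C in S-basal buffer lacking cholesterol. Each genotype was hybridised to 3 one-colour Affymetrix arrays, named biological replicates in the labels, and no fed larvae were included. Expression is given on the log2 scale, summarised by robust multi-array averaging (RMA), so a difference of 1 is a 2-fold change. No protein or promoter sequence of these genes was used here.

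Globins are proteins that hold a haem group, whose iron can bind oxygen and other small gases or pass electrons. Vertebrates use them to carry and store oxygen, while the worm, which has no circulating blood, keeps a large and diverse family of them, many expressed in neurons and most of unknown function. LIN-35 is a transcriptional repressor that acts with E2F and DP partners in the DREAM complex. The comparison asks which globin genes differ with lin-35 genotype in larvae without food.

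Most globin genes had lower mean expression in the mutant. Of the 30 genes, 28 had a mean below the wild type and 2, glb-25 and glb-33, a mean above it, and 28 were also below it after median centring, repeated quantile normalization or cyclic loess. The median log2 difference was -0.65, against -0.04 over all genes, and 10 globins (33.3%) were at least 2-fold lower, against 5.13% of all genes. In limma, with p-values adjusted by Benjamini-Hochberg across all tested probe sets, 5 globins passed an adjusted p of 0.05 and were lower, namely glb-1, glb-18, glb-22, glb-23 and glb-31, and none passed in the other direction. By the same rule 6.12% of all genes were called lower and 5.71% higher, 1047 and 978 genes, and centring each array on its median made these 1735 and 984. At an unadjusted p under 0.05 in limma, 15 of 30 globins were lower and 0 higher. Of all 17118 genes, 2657 (15.5%) were lower and 2025 higher at that threshold. The 3 mutant arrays lay wholly below the 3 wild-type arrays for 16 globins and wholly above them for none, while 18.2% of all genes lay wholly below and 13.1% wholly above. Whole-larva RNA does not tell fewer cells of a type from less RNA per cell.

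**Figure D1:**
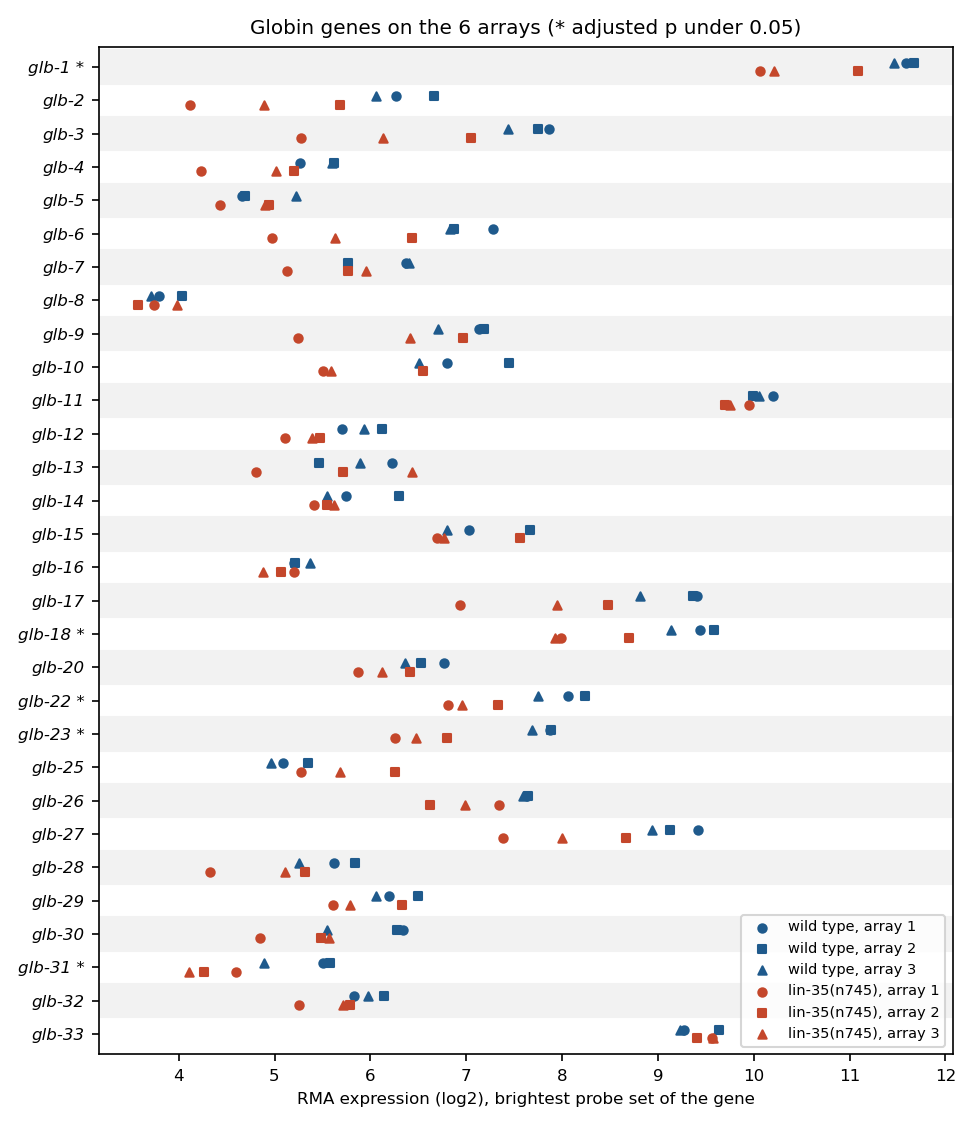
RMA log2 expression of the 30 globin genes (rows) on each of the 6 arrays, wild type in blue and lin-35(n745) in red, with a symbol for each replicate number; an asterisk marks the 5 genes with an adjusted p under 0.05. Red points lie to the left of blue points in most rows, and mutant replicate 1 (red circles) is the lowest of all 6 arrays for 22 genes.

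The clearest difference was that of glb-23. Its wild-type arrays read 7.88, 7.88 and 7.69 and its mutant arrays 6.26, 6.80 and 6.47, on the log2 scale. The groups were well apart, and replicates of a genotype lay close together. The level was 2.47-fold lower in the mutant (log2 difference -1.30, SE 0.18, limma adjusted p = 0.00603). With 1 array left out, between 1.68% and 5.83% of all genes were called lower, against 6.12% with all 6 arrays. Of the 5 called globins, glb-23 was the one that kept its call without any 1 of the 6 arrays, with adjusted p between 0.0096 and 0.0351. With mutant replicate 2 as the single array of its genotype the adjusted p was 0.0657 and the difference -1.02.

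The gene glb-1 encodes an intracellular globin that binds oxygen. Wild-type arrays read 11.6, 11.7 and 11.5, and mutant arrays 10.1, 11.1 and 10.2. All mutant arrays lay below the wild type, with replicate 2 nearest to it. The difference was -1.12 (SE 0.28, limma adjusted p = 0.0437), a 2.17-fold lower level. It no longer passed when wild-type replicate 1 (adjusted p = 0.131), 2 (0.124) or 3 (0.0818) or mutant replicate 1 (0.0937) or 3 (0.134) was left out, and with mutant replicate 2 alone the difference was -0.48. Its probe set can match more than 1 transcript, as its identifier marks.

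The genes glb-18 and glb-22 were also lower by about the same amount. For glb-18 the wild type read 9.44, 9.58 and 9.14 and the mutant 7.99, 8.70 and 7.92. The 2 genotypes did not overlap, and the difference was -1.18 (SE 0.25, limma adjusted p = 0.0254). For glb-22 the wild type read 8.06, 8.24 and 7.75 and the mutant 6.81, 7.34 and 6.96, a difference of -0.98 (SE 0.20, adjusted p = 0.0257). Here too mutant replicate 2 was the mutant array nearest the wild type. Both genes lost their calls without any 1 of wild-type replicates 1 and 2 and mutant replicates 1 and 3, at adjusted p of up to 0.0938 for glb-18 and 0.0985 for glb-22.

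The order of the mutant arrays was another one for glb-31. Its wild-type arrays read 5.51, 5.58 and 4.89 and its mutant arrays 4.60, 4.26 and 4.10. Mutant replicate 1 was thus the highest mutant array, and the gap to the lowest wild-type array was small. The mean was 5.32 ± 0.38 in the wild type and 4.32 ± 0.26 in the mutant (SD, n = 3; SE of the difference 0.24, limma adjusted p = 0.0377). It stopped passing when wild-type replicate 1 (adjusted p = 0.135) or 2 (0.113) or mutant replicate 2 (0.0859) or 3 (0.116) was left out, and still passed without mutant replicate 1 (0.0377).

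**Figure D2:**
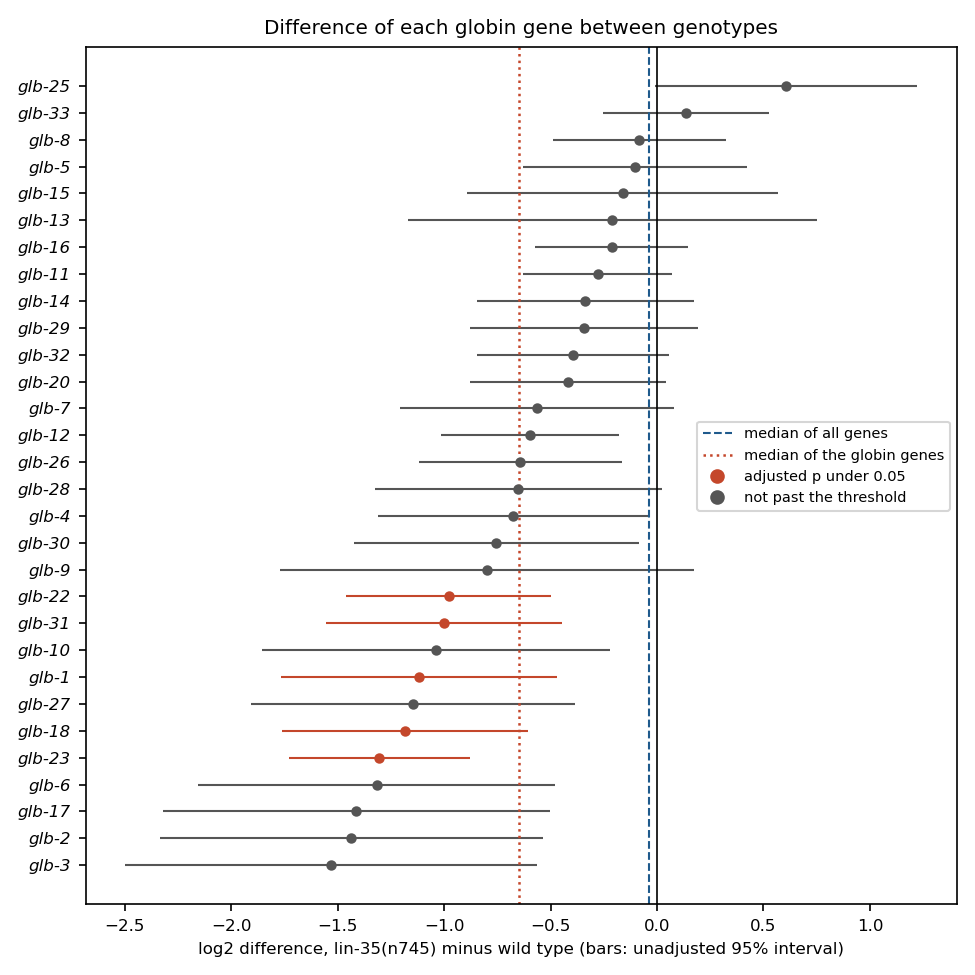
Log2 difference between lin-35(n745) and wild type for the 30 globin genes, ordered by size, with unadjusted 95% intervals from limma; red marks the 5 called genes, the dotted line the globin median (-0.65) and the dashed line the median of all genes (-0.04). The 4 lowest differences, those of glb-3, glb-2, glb-17 and glb-6, have wide intervals and are not among the called genes.

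The globins with the lowest differences were not among those called, and their mutant arrays were spread widely. The gene glb-3 read 7.87, 7.75 and 7.44 in the wild type and 5.28, 7.05 and 6.14 in the mutant. The groups did not overlap, but the SD was 0.88 among mutant arrays and 0.22 among wild-type arrays. The difference was -1.53 (SE 0.41, limma adjusted p = 0.0568). For glb-2 the wild type read 6.27, 6.66 and 6.06 and the mutant 4.12, 5.68 and 4.89, a difference of -1.44 (SE 0.38, adjusted p = 0.0552). For glb-17 it read 9.41, 9.37 and 8.81 in the wild type and 6.94, 8.48 and 7.95 in the mutant, a difference of -1.41 (SE 0.39, adjusted p = 0.0594). In both, mutant replicate 1 was lowest, replicate 3 intermediate and replicate 2 highest.

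The same order was seen for glb-6, which encodes a neuronal globin whose haem iron is held on both sides by histidines. It read 7.28, 6.87 and 6.83 in the wild type and 4.97, 6.44 and 5.63 in the mutant, a difference of -1.32 (SE 0.36, limma adjusted p = 0.0579). For glb-27 the wild type read 9.42, 9.13 and 8.94 and the mutant 7.38, 8.67 and 8.00, a difference of -1.15 (SE 0.32, adjusted p = 0.0644). None of glb-2, glb-3, glb-6, glb-17 and glb-27 passed the threshold as tested, and each passed it without mutant replicate 2, with adjusted p between 0.0159 and 0.0323.

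A pair of globins with known cellular roles, glb-12 and glb-26, lay just outside the threshold. Their mutant SDs, 0.19 and 0.36, were smaller than those above, but the wild-type SD of glb-26 was only 0.03, against 0.21 for glb-12. The gene glb-12, whose product takes part in redox signalling in the reproductive system, read 5.70, 6.12 and 5.93 in the wild type and 5.11, 5.47 and 5.39 in the mutant. Its groups did not overlap, at a difference of -0.60 (SE 0.18, limma adjusted p = 0.0751). The gene glb-26, which encodes a lipid-anchored globin, read 7.64, 7.65 and 7.59 in the wild type and 7.34, 6.62 and 6.98 in the mutant, a difference of -0.64 (SE 0.20, adjusted p = 0.0885). In this gene mutant replicate 1 was nearest the wild type, and without it the difference passed the threshold (-0.82, adjusted p = 0.0359). The glb-26 probe set can also match more than 1 transcript. In all, 11 of the 25 globins that were not called had mutant arrays wholly below the wild type. Of all genes, called ones included, 18.2% did. An adjusted p under 0.1 was seen for 7 of the 25, and the matching share of all genes was not counted.

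The other globins gave smaller or less certain differences. The gene glb-5, which tunes oxygen-sensing neurons, read 4.66, 4.69 and 5.22 in the wild type and 4.43, 4.94 and 4.90 in the mutant. The genotypes overlapped, and the difference of -0.10 had a 95% interval from -0.63 to 0.42 (limma adjusted p = 0.851). Its sign turned without wild-type replicate 3 or mutant replicate 1. In the WBcel235 gene table glb-5 and glb-6 are neighbours, with 0 protein-coding genes between them, and their differences were -0.10 and -1.32. Among the globins measured, the next nearest, glb-23 and glb-2, have 14 protein-coding genes between them and stood at -1.30 and -1.44.

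The gene glb-33 encodes an unusual protein that joins a globin domain to a receptor-like membrane domain. On its brightest probe set it read 9.27, 9.64 and 9.23 in the wild type and 9.56, 9.41 and 9.57 in the mutant. These ranges overlapped, and the difference was 0.14 (95% interval -0.25 to 0.53, limma adjusted p = 0.702). Its other probe sets gave -0.39 and -0.52, so the sign for glb-33 depended on the probe set. The gene glb-25 read 5.08, 5.35 and 4.97 in the wild type and 5.27, 6.26 and 5.68 in the mutant, a difference of 0.61 (95% interval -0.01 to 1.22, adjusted p = 0.195). The excess was greatest in mutant replicate 2. The second glb-25 probe set read 4.58, 4.40 and 4.42 in the wild type and 4.31, 5.62 and 4.40 in the mutant. Its difference of 0.31 (limma adjusted p = 0.665) thus came from mutant replicate 2 alone. For glb-13, mutant arrays read 4.80, 5.71 and 6.44, spanning the wild-type range of 5.46 to 6.23 on both sides (difference -0.21, adjusted p = 0.829).

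The intermediate genes glb-4, glb-7, glb-9, glb-10, glb-28 and glb-30 had differences between -1.04 and -0.56 and adjusted p between 0.104 and 0.283. Of these, glb-4 alone had mutant arrays wholly below the wild type. The genes glb-11, glb-14, glb-16, glb-20, glb-29 and glb-32 stood between -0.42 and -0.21, and glb-8 and glb-15 at -0.08 and -0.16. Mutant and wild type did not overlap for glb-11, glb-16 and glb-32 in spite of small differences, but the gaps were narrow. The highest mutant and lowest wild-type arrays read 9.95 and 9.99 for glb-11, 5.204 and 5.205 for glb-16 and 5.79 and 5.83 for glb-32. The glb-8 probe set read between 3.58 and 4.04 on all 6 arrays, close to the lowest values of the arrays, where signal cannot be told from background. It was the 1 globin whose mean lay below the 25th percentile of all probe sets, and 14 globins lay below the 50th.

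In 6 globin genes more than 1 probe set was measured, which gave 7 further probe sets. None of the 7 was called, and 6 of them were lower in the mutant. For glb-11 the dimmer probe set gave -0.95 (SE 0.28, limma adjusted p = 0.0689) and the brightest -0.28 (SE 0.15, adjusted p = 0.3). For glb-30 the dimmer one did not overlap between genotypes, at -0.47 (adjusted p = 0.082). The dimmer probe sets of glb-6 and glb-9 gave -0.32 and -0.17, on mean wild-type values of 4.16 and 3.48, where RMA understates differences.

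The size of the globin differences depended on the mutant array. Set against each gene's wild-type mean, the median globin deviation was -1.05 on mutant replicate 1, -0.38 on replicate 2 and -0.48 on replicate 3. On the wild-type arrays it was 0.03, 0.17 and -0.18. All genes had medians between -0.07 and 0.07 on the 6 arrays. Mutant replicate 1 lay below the wild-type range for 27 of 30 globins, replicate 2 for 18 and replicate 3 for 22, against 40.6%, 39.4% and 36.2% of all genes. Among the mutant arrays, replicate 1 was the lowest for 23 globins (76.7%), where it was the lowest for 33.7% of all genes. Accordingly the median SD over replicates was 0.41 in the mutant and 0.24 in the wild type for globins, and 0.26 and 0.19 for all genes.

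**Figure D3:**
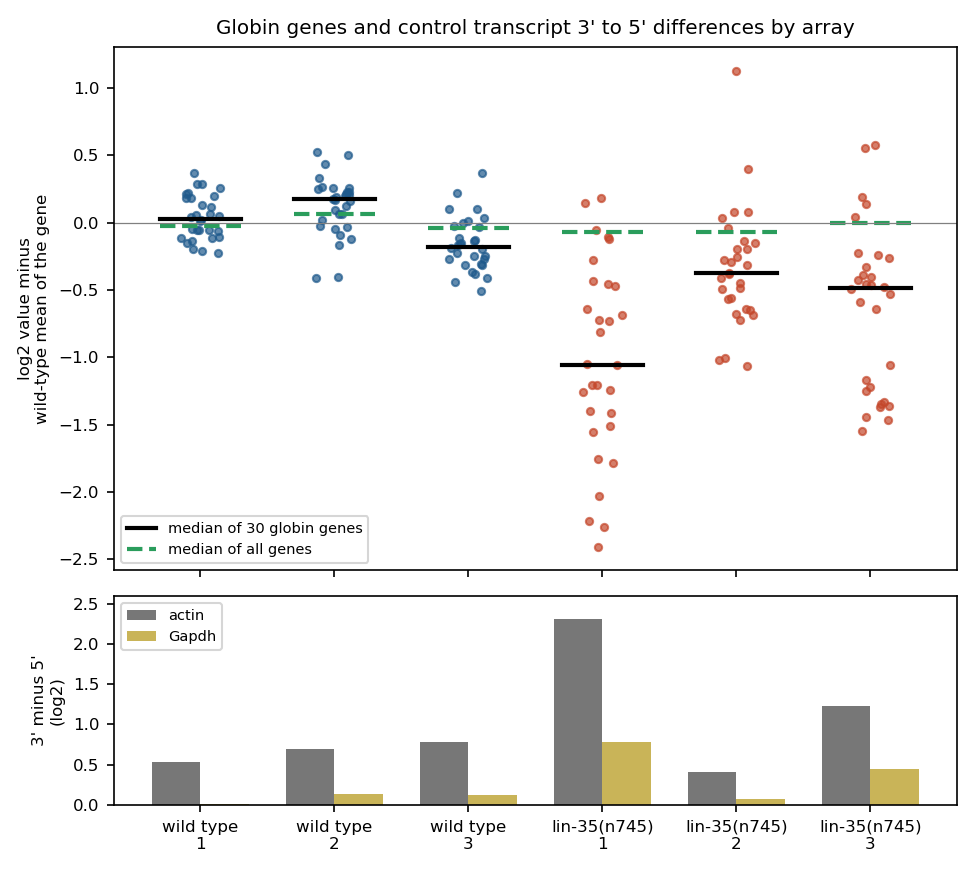
Upper panel, deviation of each of the 30 globin genes from its own wild-type mean (log2) on each array, with the globin median (solid bar) and the median of all genes (dashed bar). Lower panel, signal of the 3' minus that of the 5' control probe set (log2) for actin and Gapdh on the same arrays; mutant replicate 1 has the lowest globin median (-1.05) and the highest actin difference (2.31), and mutant replicate 2 has the lowest actin difference (0.41) with a globin median of -0.38.

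A sign of RNA quality moved with these values. For the actin control transcript, the 3' probe set exceeded the 5' one by 2.31, 0.41 and 1.23 on mutant replicates 1 to 3, and by 0.53, 0.70 and 0.78 on the wild-type arrays, in log2 units. The array with the lowest globin values, mutant replicate 1, was thus the one with the highest 3' to 5' difference. On mutant replicate 2 the actin difference was below that of every wild-type array. The Gapdh difference there (0.077) lay within the wild-type range of 0.0085 to 0.134. Mutant replicate 2 had 25 of 30 globins below their wild-type means, with a median of -0.38, against -0.07 over all genes. When mutant replicate 2 alone stood for the mutant, globin differences ran from -1.06 (glb-31) to 1.13 (glb-25). A single array gives no spread for its genotype. With the actin and Gapdh differences as a covariate the globin median was -0.35, the genes glb-3, glb-23 and glb-26 were called lower and glb-25 was called higher (0.97, adjusted p = 0.0396). Without mutant replicate 1 the median was -0.37, and glb-23, glb-26 and glb-31 were called lower.

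**Figure D4:**
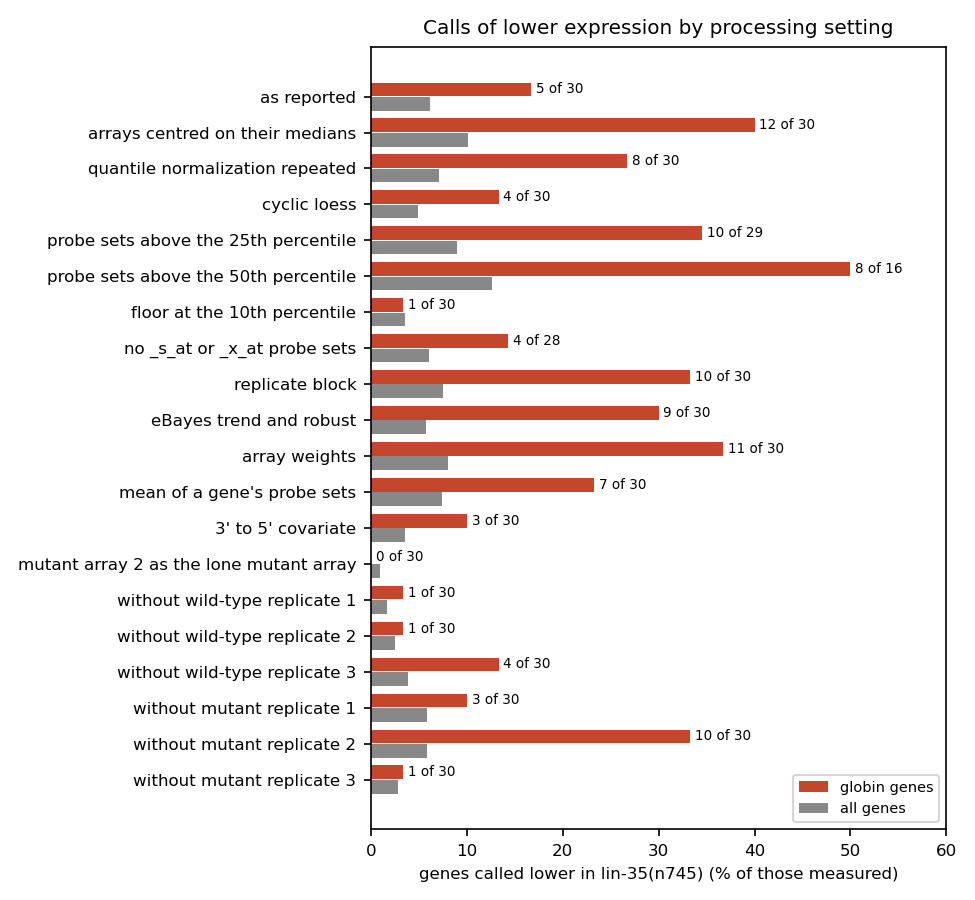
Share of globin genes (red) and of all genes (grey) called lower in lin-35(n745) as reported and under 19 alternative settings, in percent of the genes measured, with globin counts beside the bars. The globin count runs from 0 of 30, where mutant replicate 2 alone stood for the mutant, to 12 of 30 with arrays centred on their medians, and its share is below that of all genes in 2 settings, the floor at the 10th percentile and the lone mutant array.

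Genes of oxygen sensing and haem handling were read beside the globins. The soluble guanylate cyclases gcy-31 to gcy-37, which bind oxygen through haem in sensory neurons, gave no call among 7 measured members in limma (0 at an unadjusted p under 0.05), with differences between -0.36 and -0.02 and a median of -0.10. Of 9 genes of the oxygen response circuit 1 rose and 1 fell, with a median of -0.68. Their array medians on mutant replicates 1 to 3 were -1.05, -0.40 and -0.59, near the globin medians of -1.05, -0.38 and -0.48. The cyclic nucleotide-gated channel gene cng-1 read 3.49, 3.64 and 3.70 in the wild type and 6.77, 7.09 and 6.16 in the mutant. The wild-type values were close to the lowest of the arrays, where signal cannot be told from background, so the size of the rise is not measured (difference of RMA values 3.06, SE 0.24, limma adjusted p = 0.00079). Its call was kept under all 17 alternatives in which it was measured. The neuropeptide gene flp-21, which encodes a ligand of the receptor NPR-1, fell from 10.4 to 8.79 (difference -1.59, SE 0.36, adjusted p = 0.0326). Its call was lost without 4 of the 6 arrays, at adjusted p of up to 0.113. The receptor gene npr-1 itself stood at -0.91 and did not pass (adjusted p = 0.0659).

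Among 9 measured genes of 12 listed for the hypoxia pathway none was called in limma, 2 being lower and 1 higher at an unadjusted p under 0.05, with a median of -0.38. The cysteine synthase family gene cysl-1 (-0.58, adjusted p = 0.0535) and vhl-1 (-0.70, adjusted p = 0.0614), which marks hypoxia-inducible factor for destruction, lay just outside the threshold. Of 6 haem transport genes 1 fell, hrg-1, a haem importer, which went from 8.89 ± 0.28 to 7.53 ± 0.62 (SD, n = 3; difference -1.35, SE 0.32, limma adjusted p = 0.0387). The call of hrg-1 was lost without 5 of the 6 arrays, at adjusted p of up to 0.118, and the list median was -0.01. Of 6 catalase and superoxide dismutase genes sod-3 alone was called, at -1.32 (adjusted p = 0.0237), with a list median of -0.36 and the call lost without 4 of the 6 arrays (adjusted p up to 0.0837).

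Markers of the tissues of a larva were counted in the same fit. Some markers were bright in the wild type, with egl-3 for neurons at 12.6, unc-54 for body wall muscle at 11.1 and ges-1 for intestine at 8.99. Others were dim, down to 3.93 among neuronal and 4.01 among hypodermis markers. The wild-type arrays of unc-54 read 11.6, 9.21 and 12.6. Set against wild-type means, array medians on wild-type replicate 2 were -0.59 for body wall muscle, -0.35 for pharynx and 0.01 for neurons. Of 16 pan-neuronal markers 3 fell and none rose, with a median of -0.11 and array medians of -0.08, 0.01 and -0.29 on mutant replicates 1 to 3. The synaptic genes sng-1 (-1.52, limma adjusted p = 0.0113), ric-4 (-0.72, adjusted p = 0.0256) and snt-1 (-0.67, adjusted p = 0.0484) were those that fell. The calls of ric-4 and snt-1 were each lost without any of 5 arrays, and that of sng-1 without wild-type replicate 1 alone (adjusted p = 0.0538). Among 9 pharynx markers 2 fell, the troponin C gene tnc-2 (-1.42) and ceh-22 (-0.73), with a median of -0.43 and array medians of -1.02, 0.29 and -0.51. Their calls were lost without 4 and 5 of the arrays.

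Of 12 body wall muscle markers unc-60 alone was called, higher by 0.58, and the call was lost whichever of the 6 arrays was left out. Of 11 intestine markers 3 rose, act-5 (1.65), elt-2 (0.98) and pept-1 (1.04), and act-5 alone of these kept its call without any 1 array. The mean was lower in the mutant for 5 of the 11. Mutant arrays lay wholly below the wild type for 3 intestine markers and wholly above it for 4. Of 12 hypodermis markers elt-1 rose (0.82) and dpy-5 fell (-3.41), with calls lost without any of 5 and 2 of the arrays, and of 12 germline markers 3 rose, glh-1 (4.40), pgl-1 (2.66) and pgl-3 (3.42). List medians for these tissues were 0.29, 0.21, 0.07 and 0.20, against -0.65 for the globins. The part of tissue make-up, of RNA quality and of mutant replicate 1 in the globin differences was not tested. The lin-35 transcript itself read 7.36 ± 0.19 in the wild type and 7.42 ± 0.25 in the mutant (SD, n = 3), and as n745 is a point mutation this does not check the genotype labels.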

How the data were processed

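The authors deposited log2 expression values for 22625 probe sets on 6 one-colour arrays. The submitters' processing notes name RMA, without a version, and the labels' protocols give biotin-labelled cRNA from 6 µg of total RNA per array. RMA normalises quantiles between arrays, which hides shifts of all transcripts, and compresses dim values. Medians over the tested probe sets still differed, at 5.93, 5.91 and 5.91 in the wild type and 5.98, 6.11 and 5.91 in the mutant. The number of arrays limits precision. The 77 control probe sets were left out and no filter was applied. Symbols were those of the platform's annotation, some perhaps outdated: 20766 probe sets had 1 symbol, 887 several and 895 none. All 30 globin symbols matched RefSeq through their Entrez identifiers. Genotypes were compared with limma 3.58.1 in R 4.3.3 (lmFit and eBayes, two-sided, mutant minus wild type). P-values were adjusted by Benjamini-Hochberg across the 22548 tested probe sets, with 95% intervals unadjusted. "Called", "rose" and "fell" mean an adjusted p under 0.05. The fit was tested on simulated data. Protein sequences were planned but not used here. Members, gene lists and tests were chosen with earlier results of these data known. All globins were named, the other genes by list: called members, up to 3 in each direction, with npr-1, cysl-1 and vhl-1 added once their values were known. In all, 19 alternatives covered scaling, filters, variance models, pairing, arrays left out and a 3' to 5' covariate.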

Additional observations from a re-analysis of the deposited data

How the results depend on the processing

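As reported, 5 globins were called lower and 0 higher, with a median of -0.65. The lower count was 12 with arrays centred on their medians, 8 with quantile normalization repeated, 10 and 8 with probe sets below the 25th or 50th percentile left out, 9 with trend and robust variance settings, 11 with array weights, 3 with the 3' to 5' covariate (and 1 higher) and 1 with a floor at the 10th percentile, which left 1153 probe sets constant. It was 4 with cyclic loess and without probe sets that can match several transcripts, and 7 with probe sets averaged per gene. With mutant replicate 2 as the single mutant array, chosen after seeing the data and assuming that it varies like the wild type, the count was 0. Of all genes, 10.1% were called lower with median centring, 3.57% with the covariate and 3.52% with the floor, against 6.12% as reported. This share was 7.07% with quantile normalization repeated, 4.94% with cyclic loess and 7.45% with probe sets averaged per gene. Of the genes still measured above the 25th and 50th percentiles it was 8.99% and 12.6%. Trend and robust variance settings gave 5.71% and array weights 8.06%. Restricted to probe sets not marked as matching more than 1 transcript, it was 6.09%. Leaving out 1 array at a time gave 1 to 10 lower calls, the lowest when wild-type replicate 1 or 2 or mutant replicate 3 was left out. The share of all genes called lower was then 1.68%, 2.47% and 2.77%, and between 3.82% and 5.83% without another array. The cause of these shifts was not tested. The median moved to -1.01 above the 50th percentile, where 16 globins remained measured, and to -0.35 with the covariate, and lay between -0.76 and -0.37 without 1 array.

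With the replicate number as a replicate block 10 globins were called lower, and 7.51% of all genes. Same-numbered arrays deviated together with correlations of 0.05, 0.08 and 0.07 across probe sets, and not every array correlated best with its own number. With deviations centred within 3 arrays per genotype, such correlations cannot tell whether the numbers pair the samples, and the labels do not say.

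No called globin changed sign under the alternatives. Signs turned in uncalled genes. For glb-15 the value was 0.071 with array weights, 0.15 with the covariate, 0.39 with the single mutant array and from -0.44 to 0.089 with 1 array left out. For glb-5 it was 0.068 with the covariate, 0.082 with the single mutant array and from -0.20 to 0.080 with 1 array left out. For glb-13 it was 0.18 with the covariate and from -0.60 to 0.21 with 1 array left out, and for glb-8 from -0.19 to 0.013. For glb-33 it was -0.26 with its probe sets averaged, and for glb-29 it was 0.077 with the single mutant array. Over all settings 13 globins were called lower at least once and 1, glb-25, higher.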
